A study of Homo sapiens with 35 samples.

Results

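The comparison examined here is the RNA-seq response of U-87 MG control cells to TWEAK. These cells are an established line from a human glioblastoma. The 6 libraries are 3 of untreated and 3 of TWEAK-treated control cells, out of 12 RNA-seq libraries and 35 samples in the series. Both groups carried the control genotype and no knockdown, were grown for 24 h and were then kept for 8 h in a low-serum medium. The treated group then received recombinant TWEAK at 10 ng/ml for 48 h, renewed after 24 h. The labels do not describe the control genotype further, and the line stands for 1 tumour. All genes kept by an expression filter are described, which were 16879 of the 62696 rows of the count table. The study names the libraries of a group biological replicates.

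TWEAK (gene *TNFSF12*) is a cytokine of the TNF family that binds the receptor Fn14 (gene *TNFRSF12A*). Fn14 recruits TRAF2 and the ubiquitin ligases cIAP1 and cIAP2 (genes *BIRC2* and *BIRC3*), which together with TRAF3 otherwise keep the kinase NIK (gene *MAP3K14*) short-lived. Stabilised NIK drives processing of p100, the product of *NFKB2*, to p52, which binds κB sites with RelB. This is the non-canonical arm of NF-κB, and in gliomas TWEAK and Fn14 are known for their part in cell invasion and survival.

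Total counts of the 6 libraries were between 28384201 and 40192606, and levels are given as CPM, the count of a gene relative to the library total after TMM scaling. The libraries differed in ways that treatment did not account for. The first principal component (38.65% of the variance) placed untreated 3 with TWEAK 2 and TWEAK 3, whereas the second (33.87%) separated the treatments. TWEAK 1 lay on the side of untreated 1 and untreated 2 on the first component. Untreated 3 also had a trend with GC content opposite to that of the other untreated libraries. In the treated group, TWEAK 1 had a trend opposite to the weaker trends of TWEAK 2 and TWEAK 3. The genes *CDKN2A*, *CDKN2B* and *MTAP*, which lie in a region known to be deleted in U-87 MG, had 0 counts in all 6 libraries. *GFAP*, the intermediate filament of astrocytes, had between 2 and 10 counts per library, so that this defining astrocyte marker was near 0, while the mesenchymal filament gene *VIM* was at 9140.2, 9108 and 9088 CPM in untreated cells. Of the lymphocyte markers, 0 of 9 passed the filter.

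TWEAK raised 261 genes and lowered 259 genes (edgeR quasi-likelihood F-test, Benjamini-Hochberg adjusted p under 0.05). These were 1.55% and 1.53% of the genes tested (3.08% together), and the groups did not overlap in any of the 520 called genes. By comparison, all 3 TWEAK libraries lay above all 3 untreated libraries in 1849 tested genes (11%) and below them in 1942 (11.5%). The raised genes comprised 222 protein-coding genes and 37 lncRNAs, and the lowered genes 236 and 21, out of 12835 and 2924 tested. Changes were larger among raised genes. The median fold change was 1.97 among raised and 1.90 among lowered genes, 48 raised and 18 lowered genes changed at least 4-fold, and 27 raised and 2 lowered genes changed at least 8-fold. The summed level of the raised genes was 21565, 21638 and 22492 CPM in untreated and 38536, 38499 and 41399 CPM in TWEAK-treated libraries, and that of the lowered genes was 14939, 15321 and 16082 CPM before against 9094, 9476 and 9431 CPM after TWEAK.

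The called genes did not lie equally high or low in the treated libraries. TWEAK 3 had the highest of the treated values for 166 of the 261 raised genes and the lowest for 125 of the 259 lowered genes, whereas over all tested genes it was the highest in 6112 and the lowest in 6182 of 16879. TWEAK 1 had the lowest of the treated values for 142 raised genes, and for 6935 of the 16879 tested genes. The untreated libraries differed in the raised genes as well. Untreated 3 had the highest of the untreated values for 135 of them and untreated 1 the lowest for 115, against 7247 and 5541 of all tested genes. Whether these differences lay in the response or in the libraries was not tested. The calls depended on the number of libraries. Raised and lowered genes numbered 225 and 146 without TWEAK 1, 140 and 72 without TWEAK 2, 110 and 61 without TWEAK 3, 110 and 77 without untreated 1, 110 and 73 without untreated 2, and 236 and 169 without untreated 3. A named gene that was called without a remark on left-out libraries stayed past the threshold whichever of the 6 was left out. With the thresholds of the study (an unadjusted p of at most 0.05 and at least 1.5-fold), 557 genes (3.3%) rose and 640 (3.79%) fell.

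**Figure D1:**
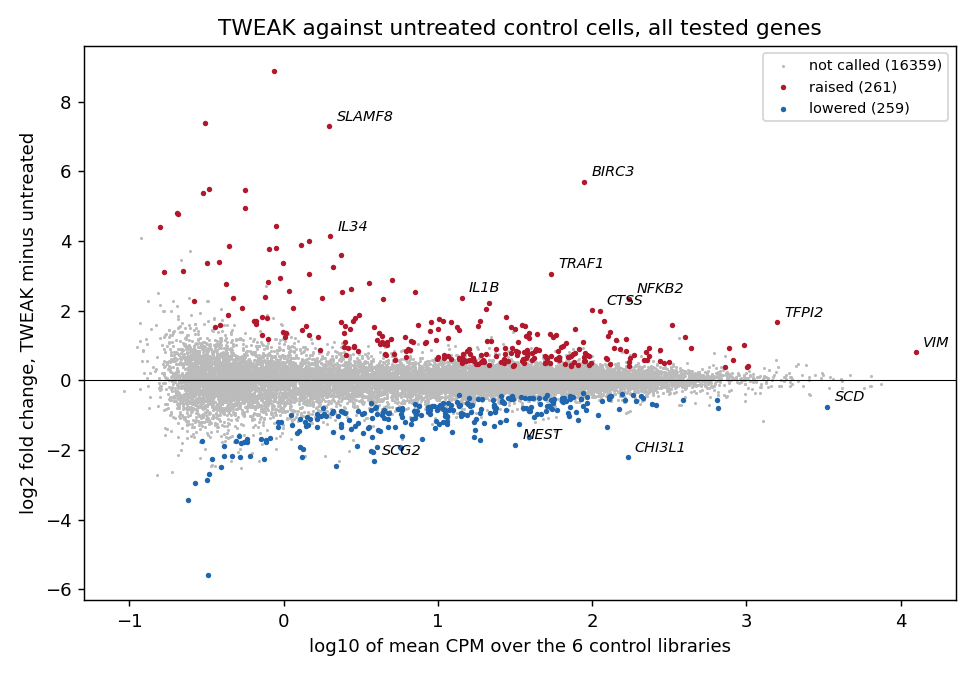
Each point is 1 of the 16879 tested genes, with the log10 of its mean CPM over the 6 control libraries on the x axis and its log2 fold change (TWEAK minus untreated) on the y axis. The 261 raised genes (red) reach further from 0 than the 259 lowered genes (blue), and *BIRC3*, *TRAF1* and *NFKB2* stand apart among genes of higher level.

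The genes of the NF-κB pathway itself were among the strongest responders. Of the 5 subunit genes, *NFKB2* and *RELB*, which encode the p52 precursor and its partner, rose. *NFKB2* was at 49.6, 54.5 and 66.6 CPM in the untreated and 235, 289 and 346 CPM in the TWEAK-treated libraries (log2 fold change 2.35 ± 0.18, adjusted p = 2.92e-05). *RELB* was at 18.6, 22.4 and 24.9 CPM in the untreated and 49.3, 56.7 and 62.9 CPM in the TWEAK-treated libraries (log2 fold change 1.36 ± 0.15, adjusted p = 0.000437). All 3 treated libraries thus lay above all untreated ones for both genes, 5.10-fold and 2.56-fold higher on average. The other 3 subunits, *NFKB1*, *RELA* and *REL*, did not pass the test here, although up to 4 of the 5 subunits were called raised under an alternative. *NFKB1* was at 33, 35 and 39.3 CPM in the untreated and 42.3, 46.2 and 55.8 CPM in the TWEAK-treated libraries (log2 fold change 0.43 ± 0.13, adjusted p = 0.117), *RELA* had a log2 fold change of 0.41 ± 0.21 (adjusted p = 0.424) and *REL* one of 0.40 ± 0.32 (adjusted p = 0.665). *NFKB1* was past the threshold in 3 of 18 alternatives (lowest adjusted p = 0.0243).

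In the receptor-proximal part of the pathway, 6 of 20 genes rose and 0 fell. *BIRC3*, a ubiquitin ligase of the receptor complex, had the largest rise of the list, from 4.52, 3.53 and 1.97 to 166, 153 and 202 CPM, 52.2-fold (log2 fold change 5.71 ± 0.42, adjusted p = 2.92e-05). The adaptor *TRAF1* was at 10.3, 11 and 13.6 CPM in the untreated and 64.2, 83.1 and 144 CPM in the TWEAK-treated libraries, 8.34-fold higher (log2 fold change 3.06 ± 0.31, adjusted p = 0.000249). *BIRC2* was at 33.3, 32.5 and 25 CPM in the untreated and 76.5, 71.3 and 82 CPM in the TWEAK-treated libraries (log2 fold change 1.34 ± 0.25, adjusted p = 0.0129). All treated libraries of these 3 genes lay above all untreated ones, and TWEAK 3 was the highest. The adaptors *TRAF2* (log2 fold change 0.91 ± 0.09, adjusted p = 0.000249) and *TRAF3* (log2 fold change 0.95 ± 0.15, adjusted p = 0.00466) rose 1.88- and 1.94-fold. *MAP3K14* was at 7.54, 7.07 and 13 CPM in the untreated and 18.9, 32 and 31.2 CPM in the TWEAK-treated libraries (log2 fold change 1.57 ± 0.31, adjusted p = 0.0156), with untreated 3 above the other untreated libraries. The receptor gene *TNFRSF12A* was at 103, 121 and 118 CPM in the untreated and 140.0, 145 and 138 CPM in the TWEAK-treated libraries, with no overlap between the groups but a log2 fold change of 0.31 ± 0.10 that missed the threshold (adjusted p = 0.136). The ligand gene *TNFSF12* was at 0.486, 0.492 and 0.5 CPM without and 0.323, 0.423 and 0.278 CPM with added TWEAK (adjusted p = 0.659). *BIRC2* lost the call when TWEAK 3 was left out (highest adjusted p = 0.0527). *MAP3K14* lost the call when TWEAK 2, TWEAK 3, untreated 1 or untreated 2 was left out (highest adjusted p = 0.0906).

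Inhibitors that feed back on NF-κB rose in 7 of 16 cases and fell in 0. *NFKBIA*, which encodes IκBα, was at 23.8, 26 and 25.8 CPM in the untreated and 56.5, 59.8 and 73.4 CPM in the TWEAK-treated libraries (log2 fold change 1.33 ± 0.15, adjusted p = 0.00051). *NFKBIE*, which encodes IκBε, was at 8.44, 8.33 and 6.16 CPM in the untreated and 33.3, 35 and 38.1 CPM in the TWEAK-treated libraries (log2 fold change 2.22 ± 0.17, adjusted p = 2.92e-05). *TNIP3*, a partner of the deubiquitinase A20, was at 0.764, 1.54 and 1.28 CPM in the untreated and 9.69, 6.77 and 10.2 CPM in the TWEAK-treated libraries (log2 fold change 2.88 ± 0.33, adjusted p = 0.000473). These 3 genes rose 2.51-, 4.64- and 7.37-fold. *NFKBIZ* rose 1.90-fold (adjusted p = 0.0406), and the remaining members past the threshold, named after their values were seen, were *NFKBIB*, *TNIP1* and *TNIP2*. *TNFAIP3*, which encodes A20, was at 8.69, 10.1 and 10.5 CPM in the untreated and 10.3, 13 and 18.7 CPM in the TWEAK-treated libraries. Its groups overlapped and its log2 fold change of 0.53 ± 0.22 did not pass (adjusted p = 0.284), apart from 1 of 18 alternatives (adjusted p = 0.0362). *NFKBIZ* lost the call when TWEAK 2, TWEAK 3, untreated 1, untreated 2 or untreated 3 was left out (highest adjusted p = 0.19). *NFKBIB* lost the call when TWEAK 1, TWEAK 2, untreated 1 or untreated 2 was left out (highest adjusted p = 0.0897). *TNIP1* lost the call when TWEAK 2, TWEAK 3, untreated 1 or untreated 2 was left out (highest adjusted p = 0.135). Without any 1 library, between 4 and 7 of the 16 inhibitor genes were past the threshold, and between 4 and 6 of the 20 receptor-proximal genes.

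**Figure D2:**
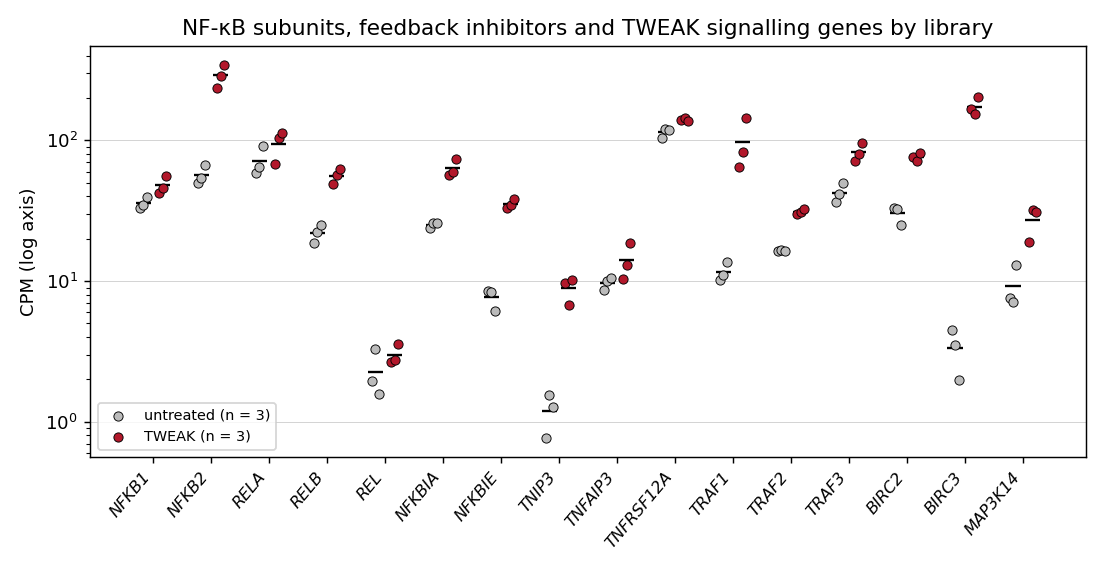
The level of NF-κB subunit, feedback and TWEAK signalling genes is shown in CPM on a log axis, with 1 point per library, grey for the 3 untreated and red for the 3 TWEAK-treated libraries, and a bar at the group mean. The groups are far apart for *BIRC3*, *TRAF1*, *NFKB2* and *NFKBIE* and overlap for *REL* and *TNFAIP3*.

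Peak lists of p52 ChIP-seq from control cells with the same treatment gave another readout that the RNA comparison did not use. Sites were called p52 sites when both replicates of a condition had a peak, and none of the genes in the next lines had a p52 peak within 10 kb in an untreated library. The lines below give 30 bases of hg38 from p52 sites of 4 raised pathway genes, 5′ to 3′ on the stated strand, with a match to the 10-base κB consensus in capitals. Each shows a match within a p52 site of its gene, and a site can hold further matches.
*NFKB2*, chr10:102394490-102394519, plus strand: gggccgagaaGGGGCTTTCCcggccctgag
*RELB*, chr19:45001323-45001352, plus strand: gtgacgcgtgGGGGTTTTCCcgttccccag
*TRAF1*, chr9:120928505-120928534, plus strand: atcctctgcgGGGAATTCCCcccgcgtctc
*NFKBIA*, chr14:35403953-35403982, plus strand: caggcgcccaGGGACTTTCCgcccccctcc
At *NFKB2* the summit of both replicates was at 102394500, 3 bp upstream of the nearest annotated start site, and the site held 7 matches counted on both strands with overlaps. By q-value it ranked 14 in replicate 1 and 4 in replicate 2. At *RELB* the summit lay 122 bp upstream of the nearest start site, outside the gene. At *TRAF1* it lay 652 bp downstream of the nearest start site, within the gene but outside its MANE transcript. Another p52 site of *TRAF1*, with its summit 531 bp downstream of the nearest start site, held 0 matches. The *NFKBIA* site lay in an intron, with the match 141 bases from the summit of replicate 1. *BIRC3* and *NFKBIE* had a p52 peak within 10 kb in TWEAK replicate 2 only, and so had no p52 site by this rule.

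Chemokines and cytokines formed the next group of rises. Of the 28 chemokine genes listed, 13 had 0 counts in all 6 libraries and 10 passed the filter, of which 5 rose and 0 fell. All 5 encode chemokines that attract neutrophils or monocytes. *CXCL2* was at 7.3, 7.16 and 9.56 CPM in the untreated and 25.4, 32.3 and 41.2 CPM in the TWEAK-treated libraries (log2 fold change 2.04 ± 0.25, adjusted p = 0.000733). *CXCL3* was at 1.6, 2.03 and 2.66 CPM in the untreated and 8.79, 10.2 and 17.6 CPM in the TWEAK-treated libraries (log2 fold change 2.54 ± 0.33, adjusted p = 0.00105). *CXCL5* was at 0.799, 1.2 and 0.688 CPM in the untreated and 5.49, 5.18 and 8.22 CPM in the TWEAK-treated libraries (log2 fold change 2.81 ± 0.27, adjusted p = 0.000193). TWEAK 3 was the highest library for all 3 genes, which rose 4.12-, 5.82- and 6.99-fold. *CCL3* was at 0.313, 0.553 and 0.313 CPM in the untreated and 3.26, 3.88 and 4.22 CPM in the TWEAK-treated libraries (log2 fold change 3.25 ± 0.34, adjusted p = 0.000301), and *CXCL8*, named after its values were seen, had a log2 fold change of 1.68 ± 0.23 (adjusted p = 0.00174). *CXCL2* and *CXCL3* have near-identical sequence, as *CCL3* has to its copies, so that reads may be shared or lost between them. The largest value without a call was that of *CCL5*, named after its values were seen, which had 1 count in all untreated and 26 counts in all treated libraries (ratio 22.8, exact 95% interval 3.74 to 933). *CCL5* was past the threshold without TWEAK 1 (adjusted p = 0.0479) and with no filter on low counts (adjusted p = 0.0138). Without any 1 library, 5 or 6 chemokines rose. Of the 10 tested, 3 lay below 0, and in 2 all treated libraries lay below all untreated ones. At an unadjusted p under 0.05, 6 members lay above and 2 below 0. DESeq2 called 5 raised and 1 lowered.

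Among interleukins and colony-stimulating factors, 8 of 22 tested genes rose and 0 fell, with a median log2 fold change of 0.72 against 0.02 over all tested genes. *IL1B*, a central inflammatory cytokine, was at 4.66, 4.89 and 4.25 CPM in the untreated and 23.8, 18.9 and 29 CPM in the TWEAK-treated libraries (log2 fold change 2.38 ± 0.24, adjusted p = 0.000249). *IL32*, an inducer of other cytokines, was at 0.174, 0.0922 and 0.219 CPM in the untreated and 1.94, 2.14 and 3.22 CPM in the TWEAK-treated libraries (log2 fold change 3.89 ± 0.35, adjusted p = 0.000126). *IL34*, a ligand of the receptor CSF1R, was at 0.139, 0.215 and 0.281 CPM in the untreated and 2.73, 4.51 and 4.19 CPM in the TWEAK-treated libraries (log2 fold change 4.14 ± 0.52, adjusted p = 0.000888). The last 2 were below 0.3 CPM in every untreated library. *IL24* rose 2.71-fold (log2 fold change 1.44 ± 0.17, adjusted p = 0.00051). *IL1A*, *IL1RN*, *IL6* and *LIF*, named after their values were seen, were the other members that rose, between 2.14- and 2.22-fold. For *IL6* the levels were 2.81, 2.74 and 2.69 CPM in the untreated and 6.17, 4.88 and 6.83 CPM in the TWEAK-treated libraries, and for *LIF* 47.5, 54.1 and 65.2 CPM in the untreated and 94.1, 115 and 148 CPM in the TWEAK-treated libraries. In 16 of the 22 genes all treated libraries lay above all untreated ones, against 11% of all tested genes. *IL1A* and *IL1RN* lost the call when TWEAK 2, TWEAK 3, untreated 1 or untreated 2 was left out (highest adjusted p = 0.0847 and 0.105, in that order). *IL6* lost the call when TWEAK 3 was left out (highest adjusted p = 0.054). *LIF* lost the call when TWEAK 3, untreated 1 or untreated 2 was left out (highest adjusted p = 0.0606). The number of raised members was between 4 and 10 when 1 library was left out.
The p52 sites of 3 of these genes carried the following κB matches, again in capitals.
*CXCL2*, chr4:74099253-74099282, plus strand: tcccgggccaGGGAAATTCCcggagctcca
*CXCL3*, chr4:74038748-74038777, plus strand: ggccgggccaGGGAAATTCCcggagctcca
*IL32*, chr16:3065294-3065323, plus strand: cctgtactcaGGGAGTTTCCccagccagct
The summits of replicate 1 lay 17, 2 and 3 bases from these matches. The summit of the *CXCL2* site lay 54 bp upstream of the nearest start site, and that of *IL32* 1 bp upstream.

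In the wider TNF receptor and ligand families, 19 of 27 genes were tested, of which 2 rose and 0 fell. *TNFRSF9*, the costimulatory receptor 4-1BB, was at 1.36, 1.6 and 1.41 CPM in the untreated and 5.81, 6.25 and 10.2 CPM in the TWEAK-treated libraries (log2 fold change 2.35 ± 0.26, adjusted p = 0.000437). *TNFSF10*, the death ligand TRAIL, was at 0.347, 0.338 and 0.219 CPM in the untreated and 0.969, 1.02 and 0.972 CPM in the TWEAK-treated libraries (log2 fold change 1.70 ± 0.29, adjusted p = 0.00707). Of 16 tested inflammation and acute-phase genes, *PTX3*, a secreted pattern-recognition protein, was at 13.3, 12.9 and 13.2 CPM in the untreated and 21.8, 19.2 and 21.2 CPM in the TWEAK-treated libraries (log2 fold change 0.66 ± 0.12, adjusted p = 0.0124), and the receptor kinase *IRAK2* was at 23.9, 24.3 and 24.9 CPM in the untreated and 35.7, 38.7 and 47.4 CPM in the TWEAK-treated libraries (log2 fold change 0.73 ± 0.13, adjusted p = 0.00787). *PTX3* and *IRAK2* lost the call when TWEAK 3, untreated 1 or untreated 2 was left out (highest adjusted p = 0.0636 and 0.053, in that order). At *TNFRSF9* and *PTX3* the κB matches lay at the p52 summit or within 1 base of it in replicate 1.
*TNFRSF9*, chr1:7940893-7940922, plus strand: ggggtctcatGGGAAATTCCcaccacagct
*PTX3*, chr3:157436743-157436772, plus strand: accaaattcaGGGGAACTCCcgttaccgca

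Of 22 tested genes of MHC class I antigen presentation, 3 rose and 0 fell, with a median log2 fold change of 0.24. *HLA-B* was at 135, 133 and 155 CPM in the untreated and 216, 249 and 231 CPM in the TWEAK-treated libraries (log2 fold change 0.72 ± 0.14, adjusted p = 0.0135). *B2M*, the light chain shared by class I molecules, was at 907, 879.6 and 850.2 CPM in the untreated and 1135, 1186 and 1094 CPM in the TWEAK-treated libraries (log2 fold change 0.37 ± 0.09, adjusted p = 0.0432). The peptide-trimming enzyme *ERAP1* was at 46.2, 47.9 and 49.2 CPM in the untreated and 65.8, 68.1 and 86.8 CPM in the TWEAK-treated libraries (log2 fold change 0.62 ± 0.14, adjusted p = 0.0331). All treated libraries lay above all untreated ones in 12 of the 22 genes, against 11% of all tested genes. Between 0 and 2 of the 22 were called when 1 library was left out, with 0 without TWEAK 2, TWEAK 3, untreated 1 or untreated 2, and between 1 and 6 under the other alternatives that tested against no change. *HLA-B* shares near-identical sequence with other class I genes, so its level is uncertain. *HLA-B* lost the call when TWEAK 2, TWEAK 3, untreated 1 or untreated 2 was left out (highest adjusted p = 0.0964). *B2M* lost the call when any 1 library was left out (highest adjusted p = 0.189). *ERAP1* lost the call when TWEAK 2, TWEAK 3, untreated 1, untreated 2 or untreated 3 was left out (highest adjusted p = 0.163). Of the interferon-stimulated genes, only *IRF1*, a transcription factor that NF-κB as well as interferons induces, rose among 41 tested (log2 fold change 0.70 ± 0.13, adjusted p = 0.0133), and the list had a median log2 fold change of 0.00. *STAT2*, which transmits interferon signals, was at 78.9, 87.5 and 112 CPM in the untreated and 66.5, 86.7 and 90.3 CPM in the TWEAK-treated libraries, with overlapping groups (adjusted p = 0.732). *IRF1* lost the call when TWEAK 2, TWEAK 3, untreated 1 or untreated 2 was left out (highest adjusted p = 0.0882). Of 33 JAK-STAT and SOCS genes, 0 passed the edgeR test in either direction, with 5 above and 3 below 0 at an unadjusted p under 0.05, 1 raised by DESeq2 and 0 called by limma-voom. *IL6ST*, the shared receptor chain of the IL-6 family, was at 230.2, 245 and 108 CPM in the untreated and 387, 336 and 311 CPM in the TWEAK-treated libraries (adjusted p = 0.242), with untreated 3 far below the other untreated libraries. *IL6ST* was past the threshold in 4 of 18 alternatives, with an adjusted p of 0.0221 under the GC and length correction and of 3.23e-05 with no filter on low counts, and the list then held up to 3 raised genes. Of the MHC class II and guanylate-binding genes, *HLA-DQA1* rose (log2 fold change 1.12 ± 0.22, adjusted p = 0.0174) and *HLA-DMB* fell (log2 fold change -0.97 ± 0.23, adjusted p = 0.0432). *HLA-DQA1* lost the call when TWEAK 2, TWEAK 3, untreated 1 or untreated 2 was left out (highest adjusted p = 0.0947). *HLA-DMB* lost the call when any 1 library was left out (highest adjusted p = 0.212).

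Proteases and their regulators changed in a few members. Of 29 tested metalloproteinase and TIMP genes, *MMP1* and *MMP9* rose and 0 fell. *MMP1*, an interstitial collagenase, was at 4.8, 5.9 and 5.06 CPM in the untreated and 15.1, 12.6 and 16.3 CPM in the TWEAK-treated libraries (log2 fold change 1.48 ± 0.18, adjusted p = 0.00069). *MMP9*, a gelatinase, had 0 counts in every untreated library and 18, 51 and 118 counts in TWEAK 1, TWEAK 2 and TWEAK 3, at least 54.6-fold higher against a floor of 3 counts over the untreated group. Its treated libraries were at 0.646, 1.27 and 3.28 CPM and differed more from each other than those of *MMP1*, and only TWEAK 3 was above 3 CPM. A p52 site lay 600 bp upstream of the *MMP9* start site, with this match at its summit in replicate 1.
*MMP9*, chr20:46008294-46008323, minus strand: aggcaaggctGGGGAATTCCactggggcaa
In the plasminogen activator system, 3 of 10 tested genes rose and 1 fell. *PLAUR*, the urokinase receptor, was at 169, 167 and 198 CPM in the untreated and 256, 283 and 326 CPM in the TWEAK-treated libraries (log2 fold change 0.69 ± 0.11, adjusted p = 0.00474). *SERPINB2*, the inhibitor PAI-2, was at 4.48, 4.64 and 4.72 CPM in the untreated and 16.9, 12.5 and 17.9 CPM in the TWEAK-treated libraries (log2 fold change 1.77 ± 0.40, adjusted p = 0.0309). *PLAT*, the tissue plasminogen activator, was at 13.3, 13.3 and 16 CPM in the untreated and 8.18, 7.09 and 8.66 CPM in the TWEAK-treated libraries (log2 fold change -0.83 ± 0.19, adjusted p = 0.0298) and was the only gene of the list that fell. *SERPINB2* and *PLAT* lost the call when any 1 library was left out (highest adjusted p = 0.118 and 0.167, in that order).

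Matrix and adhesion genes mostly did not pass, which held for the tested genes at large as well, of which 3.08% were called. Of 46 tested collagen, laminin and basement membrane genes, 0 rose and 2 fell, with 4 above and 9 below 0 at an unadjusted p under 0.05. *LAMA4*, a laminin chain of vessel basement membranes, was at 19.9, 18.3 and 19.9 CPM in the untreated and 9.15, 10.8 and 9.8 CPM in the TWEAK-treated libraries (log2 fold change -0.97 ± 0.12, adjusted p = 0.000733), and *COL15A1* was at 3.54, 4.09 and 4.88 CPM in the untreated and 1.79, 1.89 and 1.33 CPM in the TWEAK-treated libraries (log2 fold change -1.32 ± 0.21, adjusted p = 0.00514). DESeq2 called 3 raised and 3 lowered members of this list, and limma-voom 0 and 2. Under the alternatives that kept all libraries and tested against no change, between 0 and 7 members rose and between 2 and 10 fell. Of 30 integrin and focal adhesion genes, *ITGA2*, which encodes a collagen-binding integrin chain, rose from 72.8, 75.5 and 67 to 162, 159 and 243 CPM (log2 fold change 1.39 ± 0.25, adjusted p = 0.00872) and *ITGB8* fell (log2 fold change -1.09 ± 0.25, adjusted p = 0.0344). Of 12 tested inflammatory adhesion molecules, *NCAM1* rose (log2 fold change 0.63 ± 0.10, adjusted p = 0.00474). *CD44*, a hyaluronan receptor, had a log2 fold change of 0.59 ± 0.18 and no call (adjusted p = 0.108), but was past the threshold in 6 of 18 alternatives, with DESeq2 (adjusted p = 0.0449), with no filter on low counts (adjusted p = 0.00618) and without TWEAK 1 (adjusted p = 0.0323) among them.

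Of 23 tested mesenchymal and EMT regulators, 1 rose and 2 fell. *VIM*, the type III intermediate filament of mesenchymal cells, was at 9140.2, 9108 and 9088 CPM in the untreated and 16368, 15375 and 16286 CPM in the TWEAK-treated libraries, 1.76-fold higher (log2 fold change 0.81 ± 0.10, adjusted p = 0.000994), with little spread within the groups. *CHI3L1*, a secreted glycoprotein used as a mesenchymal glioma marker, moved the other way, from 269, 263 and 305 to 56.3, 69.9 and 55.6 CPM, 4.60-fold lower (log2 fold change -2.20 ± 0.48, adjusted p = 0.0282). *SNAI2*, a repressor of epithelial genes, was at 45.2, 44 and 52.9 CPM in the untreated and 25.4, 28.2 and 28.1 CPM in the TWEAK-treated libraries (log2 fold change -0.80 ± 0.12, adjusted p = 0.00339). The called members of this list thus lay on both sides. *ITGB8* lost the call when TWEAK 1, TWEAK 2, TWEAK 3, untreated 1 or untreated 2 was left out (highest adjusted p = 0.184). *CHI3L1* lost the call when any 1 library was left out (highest adjusted p = 0.137). The standard error and adjusted p of *CHI3L1* came from the fit that also held the knockdown libraries. There *CHI3L1* was at 86.0, 385 and 72.7 CPM with *NFKB2* knockdown and at 106, 88.1 and 87.2 CPM with *ETS1* knockdown. The part of this spread in the lost calls was not tested.

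Among growth factors and receptors of angiogenesis, 4 of 34 tested genes rose and 2 fell. *EREG*, a ligand of the EGF receptor, was at 55, 56.9 and 56.7 CPM in the untreated and 129, 172 and 246 CPM in the TWEAK-treated libraries (log2 fold change 1.70 ± 0.27, adjusted p = 0.00484). *NRG1*, a ligand of the receptors ERBB3 and ERBB4, was at 36.6, 40.7 and 45.3 CPM in the untreated and 92.4, 104 and 148 CPM in the TWEAK-treated libraries (log2 fold change 1.49 ± 0.25, adjusted p = 0.00669). TWEAK 3 was the highest library for both. *VEGFC* and *HBEGF*, named after their values were seen, rose with log2 fold changes of 0.66 ± 0.14 (adjusted p = 0.0247) and 1.31 ± 0.12 (adjusted p = 0.000126). *ANGPT2*, a ligand of the endothelial receptor TIE2, fell from 0.799, 0.615 and 0.594 to 0.179, 0.0996 and 0.167 CPM (log2 fold change -2.17 ± 0.37, adjusted p = 0.00732), and *PDGFRA* fell from 2.05, 1.38 and 2.09 to 0.825, 0.697 and 0.5 CPM (log2 fold change -1.45 ± 0.36, adjusted p = 0.0477). *ANGPT2* lost the call when TWEAK 2 was left out (highest adjusted p = 0.056). *PDGFRA* lost the call when any 1 library was left out (highest adjusted p = 0.218). *VEGFC* lost the call when TWEAK 2, TWEAK 3, untreated 1 or untreated 2 was left out (highest adjusted p = 0.151). In the TGF-β list, 4 of 25 rose and 0 fell, among them *BMP6* (log2 fold change 1.53 ± 0.25, adjusted p = 0.00589), *CCN1* (log2 fold change 1.21 ± 0.17, adjusted p = 0.00174) and *ID3* (log2 fold change 0.79 ± 0.14, adjusted p = 0.0107).

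Transcription factors downstream of growth signals rose in small numbers. Of 19 tested ETS genes, *ETS1* and *ETS2* rose and 0 fell. *ETS1* was at 42, 41.3 and 45.1 CPM in the untreated and 71.9, 73.1 and 87.6 CPM in the TWEAK-treated libraries, 1.81-fold higher (log2 fold change 0.86 ± 0.15, adjusted p = 0.0076). *ETS2* was at 25, 24.6 and 28.8 CPM in the untreated and 43.3, 45 and 50.7 CPM in the TWEAK-treated libraries, 1.77-fold higher (log2 fold change 0.82 ± 0.14, adjusted p = 0.00698). The groups did not overlap for either gene, as in every called gene, and TWEAK 3 was the highest library of both. A p52 site in an intron of *ETS1* was in the peak lists of both TWEAK replicates, with its summit 7435 bp downstream of the nearest start site and no κB consensus match within the site. Of 17 AP-1 genes, *JUNB* (log2 fold change 0.66 ± 0.16, adjusted p = 0.0484) and *MAFF* (log2 fold change 0.93 ± 0.11, adjusted p = 0.000609) rose and *MAF* fell (log2 fold change -0.85 ± 0.17, adjusted p = 0.017). Immediate early and MAPK feedback genes rose in 6 of 29 cases and fell in 0, among them *MYC*, from 50.003, 51.3 and 64.8 to 82.3, 95.9 and 94.2 CPM (log2 fold change 0.71 ± 0.16, adjusted p = 0.0286), *KLF4*, at 10.6, 10.4 and 12.3 CPM in the untreated and 20.5, 21.5 and 20.2 CPM in the TWEAK-treated libraries (log2 fold change 0.90 ± 0.14, adjusted p = 0.00406), *KLF2* (log2 fold change 0.68 ± 0.14, adjusted p = 0.0204) and *DUSP10* (log2 fold change 0.53 ± 0.11, adjusted p = 0.0205). *MYC* and *KLF2* lost the call when TWEAK 2, TWEAK 3, untreated 1 or untreated 2 was left out (highest adjusted p = 0.135 and 0.104, in that order). *ID3* lost the call when TWEAK 3, untreated 1 or untreated 2 was left out (highest adjusted p = 0.0823). *JUNB* lost the call when any 1 library was left out (highest adjusted p = 0.229). *MAF* lost the call when TWEAK 1, TWEAK 2, TWEAK 3, untreated 1 or untreated 3 was left out (highest adjusted p = 0.0823). *DUSP10* lost the call when TWEAK 1, TWEAK 2, TWEAK 3, untreated 1 or untreated 2 was left out (highest adjusted p = 0.109). The number of raised immediate early genes was between 1 and 5 when 1 library was left out.

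Most cell cycle and DNA replication genes lay slightly higher after TWEAK. Of 61 tested genes, 4 rose and 0 fell, the median log2 fold change was 0.25, and 57 lay above 0. All treated libraries lay above all untreated ones in 29 of the 61 genes and below in 0, against 11% and 11.5% of all tested genes. The summed level of the list was between 6790 and 7432 CPM in untreated and between 8192 and 8840 CPM in TWEAK-treated libraries. *CDK6*, a kinase that acts with D-type cyclins, had the largest change, at 16.3, 17 and 12.6 CPM in the untreated and 34.9, 39.5 and 57.4 CPM in the TWEAK-treated libraries (log2 fold change 1.52 ± 0.30, adjusted p = 0.0158). Its partner *CCND1* was at 823, 876 and 934 CPM in the untreated and 1126, 1199.9 and 1208 CPM in the TWEAK-treated libraries (log2 fold change 0.42 ± 0.09, adjusted p = 0.0277). The mitotic genes *CDC20* (log2 fold change 0.52 ± 0.11, adjusted p = 0.0256) and *AURKB* (log2 fold change 0.51 ± 0.12, adjusted p = 0.041) rose less than 1.5-fold. Between 0 and 4 members were called when 1 library was left out. *CCND1* and *AURKB* lost the call when TWEAK 2, TWEAK 3, untreated 1 or untreated 2 was left out (highest adjusted p = 0.144 and 0.225, in that order). *CDK6* lost the call when TWEAK 3, untreated 1 or untreated 2 was left out (highest adjusted p = 0.0746). *CDC20* lost the call when TWEAK 1, TWEAK 2, TWEAK 3, untreated 1 or untreated 2 was left out (highest adjusted p = 0.117). At an unadjusted p under 0.05, 21 members lay above and 0 below 0. Under the other scalings the median of the list was between 0.22 and 0.25. The 44 ribosomal protein genes, of which 43 also lay above 0, had a median of 0.08 and no gene in which all treated libraries lay above all untreated ones.

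Of 25 tested BCL2 family and death genes, *CFLAR*, the caspase-8 inhibitor c-FLIP, was at 55.8, 55.4 and 54.1 CPM in the untreated and 80.4, 83.8 and 97.5 CPM in the TWEAK-treated libraries (log2 fold change 0.66 ± 0.12, adjusted p = 0.0115), and the BH3-only gene *BMF* was at 3.65, 4.09 and 5.34 CPM in the untreated and 2.62, 2.19 and 2 CPM in the TWEAK-treated libraries (log2 fold change -0.95 ± 0.21, adjusted p = 0.029). *CFLAR* lost the call when TWEAK 3, untreated 1 or untreated 2 was left out (highest adjusted p = 0.0604). *BMF* lost the call when TWEAK 2, TWEAK 3, untreated 1, untreated 2 or untreated 3 was left out (highest adjusted p = 0.153). Of 25 p53 targets, *GADD45A* alone rose, at 62.5, 64.6 and 70.7 CPM in the untreated and 115, 112 and 116 CPM in the TWEAK-treated libraries (log2 fold change 0.80 ± 0.11, adjusted p = 0.0017), while *CDKN1A* was at 258, 275 and 282 CPM in the untreated and 218, 224 and 215 CPM in the TWEAK-treated libraries (adjusted p = 0.155).

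Few metabolic and stress genes passed the test. Of 36 glycolysis and hypoxia genes, 0 rose and 1 fell, with a median log2 fold change of -0.24 and 30 genes below 0. At an unadjusted p under 0.05, 0 members of this list lay above and 9 below 0. Lowered members numbered 0 when any 1 library was left out, 2 with DESeq2, and between 1 and 8 under the alternatives that kept all libraries and tested against no change. The fall called by edgeR was in *ADM*, a vasoactive peptide, at 32.8, 32.9 and 40.1 CPM in the untreated and 18.2, 20.8 and 20.3 CPM in the TWEAK-treated libraries (log2 fold change -0.84 ± 0.18, adjusted p = 0.029). *GAPDH* was at 8235, 7949 and 7017 CPM in the untreated and 8424, 6765 and 6458 CPM in the TWEAK-treated libraries (adjusted p = 0.837). *SCD*, the stearoyl-CoA desaturase of fatty acid synthesis, fell from 3919, 4003 and 4669 to 2250.1, 2502 and 2733 CPM (log2 fold change -0.75 ± 0.13, adjusted p = 0.0076), the only called gene of 15 in its list, and *MT1E*, a metallothionein, fell from 99.3, 109 and 98.2 to 68.5, 54.9 and 41.3 CPM (log2 fold change -0.90 ± 0.21, adjusted p = 0.0345), the only one of 25 oxidative stress and metallothionein genes. *MT1E* has near-identical paralogs, so its level is uncertain. *ADM* lost the call when any 1 library was left out (highest adjusted p = 0.121). *SCD* lost the call when TWEAK 2 was left out (highest adjusted p = 0.0518). *MT1E* lost the call when TWEAK 2, TWEAK 3, untreated 1 or untreated 2 was left out (highest adjusted p = 0.138). In the unfolded protein response, 0 of 33 genes passed the edgeR test, 0 were called by DESeq2 or limma-voom, and 4 lay above and 0 below 0 at an unadjusted p under 0.05. *ERN1*, which encodes the stress sensor IRE1α, was at 9.76, 9.34 and 13.6 CPM in the untreated and 12.8, 17 and 25 CPM in the TWEAK-treated libraries. Its groups overlapped and its log2 fold change was 0.74 ± 0.24 (adjusted p = 0.136). The call of *ERN1* depended on the processing, as the gene was past the threshold in 5 of 18 alternatives (lowest adjusted p = 0.00133), among them the GC and length correction (adjusted p = 0.0176) and the fit with no filter on low counts (adjusted p = 0.00737), and in none of the 6 fits without 1 library. Over the alternatives, between 0 and 3 of the 33 genes were called raised. The chaperone gene *HSPA5* was at 2889, 2740.4 and 2999.9 CPM in the untreated and 3456, 3183 and 3424 CPM in the TWEAK-treated libraries (adjusted p = 0.301). No call was made by edgeR in the lists of cholesterol synthesis (24 genes, 3 above and 1 below 0 at an unadjusted p under 0.05), ATF4 targets (31 genes, 7 above and 0 below), aminoacyl-tRNA synthetases (20 genes, 3 above and 0 below), nuclear-encoded oxidative phosphorylation (38 genes, 1 above and 1 below), cytosolic ribosomal proteins (44 genes, 0 above and 0 below), mitochondrial transcripts (13 genes, 0 above and 0 below), heat shock proteins (13 genes, 0 above and 1 below), the circadian clock (16 genes, 0 above and 1 below) and glucocorticoid response (8 genes, 0 above and 1 below). DESeq2 called 4 raised ATF4 targets, 1 raised synthetase, 1 lowered cholesterol gene and 1 lowered clock gene and 0 members of the other 5 lists, and limma-voom called 0 in all 9. Of 31 Notch, Wnt and Hedgehog genes, *DKK3*, a secreted Wnt modulator, fell (log2 fold change -0.81 ± 0.19, adjusted p = 0.043). *DKK3* lost the call when any 1 library was left out (highest adjusted p = 0.207). The 41 further members that were selected for their level alone, without a call, had log2 fold changes between -0.55 and 0.39.

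**Figure D3:**
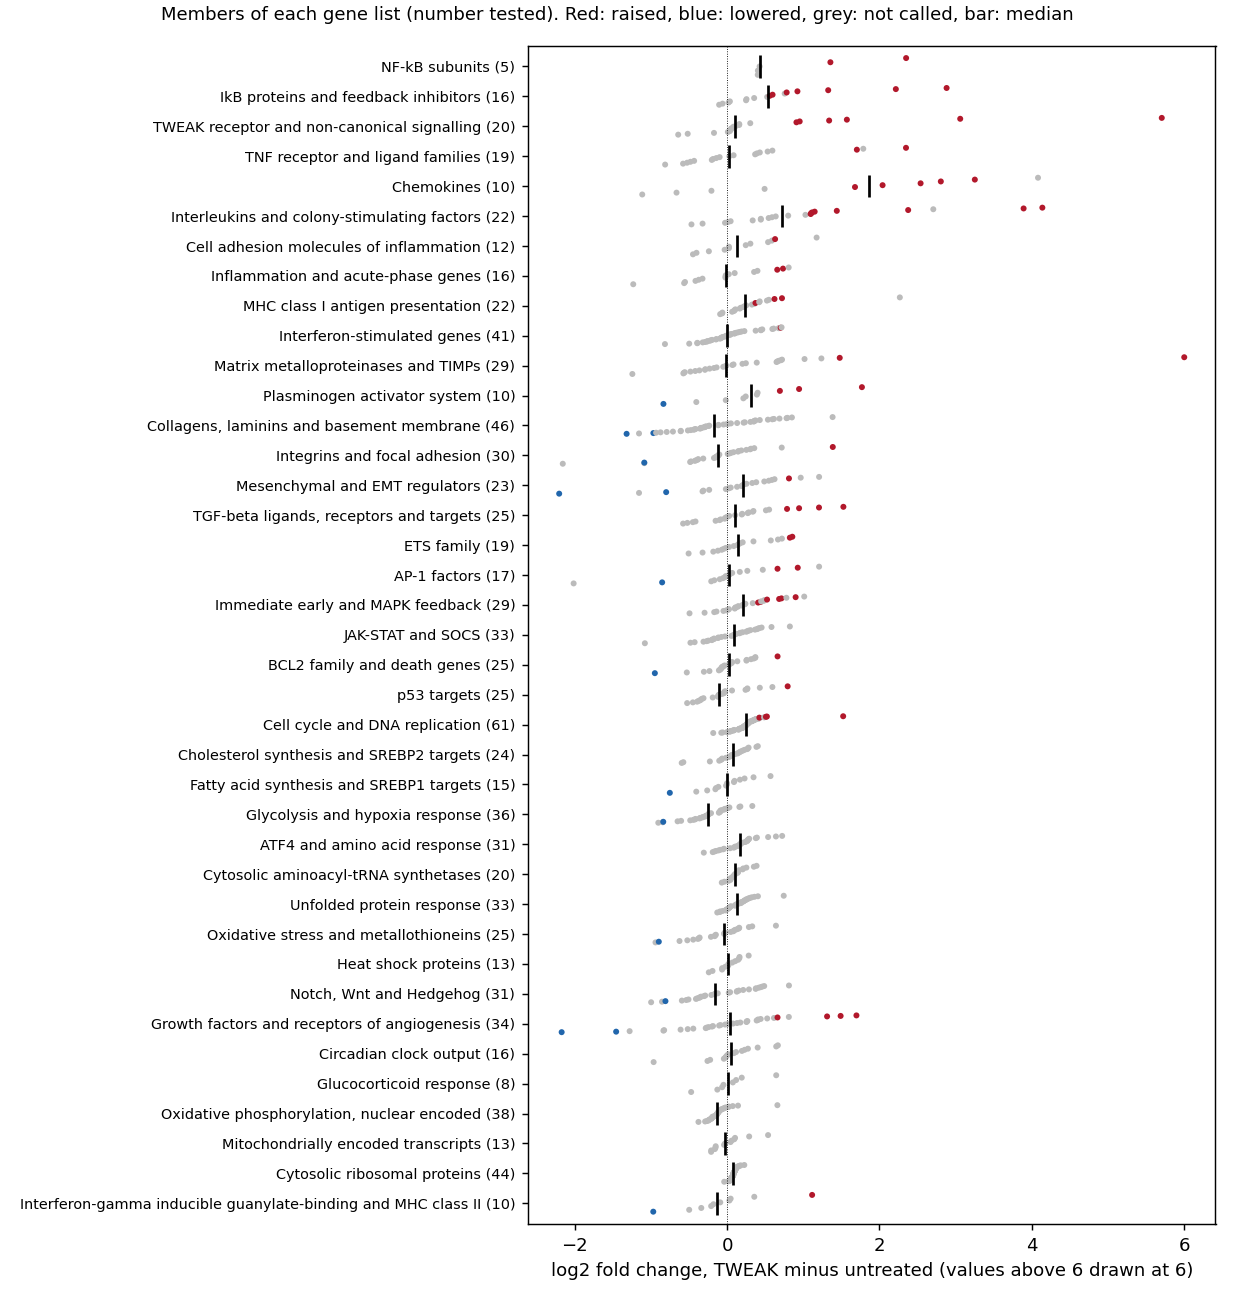
Each row is a gene list with the number of its members tested, each point is the log2 fold change (TWEAK minus untreated) of 1 member, and the bar marks the median. Raised members (red) gather in the NF-κB, inhibitor, chemokine and interleukin lists, whereas the lists of ribosomal proteins, heat shock proteins and oxidative phosphorylation hold no called member. *MMP9* is drawn at the edge of the axis.

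Of the 15 largest rises among protein-coding genes above 1 CPM, 5 were in none of these lists. *SLAMF8*, a surface receptor of myeloid cells, had 2 counts in all 3 untreated and 423 in all 3 TWEAK-treated libraries, a ratio of 185 with an exact 95% interval of 50.9 to 1534 that covers counting error only. Its treated libraries were at 1.79, 2.64 and 7.41 CPM. *NR5A2*, a nuclear receptor, was at 0.417, 0.277 and 0.375 CPM in the untreated and 3.41, 3.09 and 6.5 CPM in the TWEAK-treated libraries (log2 fold change 3.60 ± 0.39, adjusted p = 0.000348). *PI3*, the elastase inhibitor elafin, was at 0.764, 0.738 and 0.781 CPM in the untreated and 4.95, 4.08 and 5.14 CPM in the TWEAK-treated libraries (log2 fold change 2.63 ± 0.20, adjusted p = 2.92e-05). *DTX4*, a ubiquitin ligase, and *SLCO2B1*, an organic anion transporter, rose 5.92- and 5.83-fold (adjusted p = 0.00483 and 0.000249). These rises began from levels below 1 CPM in every untreated library. Markers of myeloid cells were checked because *SLAMF8* and *ITGAM* are best known in them. *ITGAM*, a leukocyte integrin chain, had 2 counts without and 116 with TWEAK (ratio 50.8, exact 95% interval 13.7 to 424). *C1QA*, *C1QB* and *TYROBP* had 0 counts in all 6 libraries, *PTPRC* had at most 3 in any, and 4 of 10 microglia and macrophage markers passed the filter. Their summed level was between 10.6 and 13.6 CPM without and between 16.2 and 18.6 CPM with TWEAK, in which *CSF1R* had the largest share, at 11.5, 9.8 and 8.44 CPM in the untreated and 14.1, 13.4 and 15.4 CPM in the TWEAK-treated libraries (adjusted p = 0.063, and 0.0147 with DESeq2). In such bulk samples a change in the number of cells of a type and a change in RNA per cell cannot be told apart.

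The largest falls were in genes of diverse function. *RANBP3L*, a Ran-binding protein, had the largest of the protein-coding genes above 1 CPM, at 4.2, 5.1 and 1.84 CPM in the untreated and 0.969, 0.722 and 0.361 CPM in the TWEAK-treated libraries (log2 fold change -2.46 ± 0.46, adjusted p = 0.0129). *SCG2*, a granin of secretory vesicles, was at 6.57, 7.07 and 5.75 CPM in the untreated and 1.11, 1.49 and 1.28 CPM in the TWEAK-treated libraries (log2 fold change -2.31 ± 0.39, adjusted p = 0.00714). *MEST*, an imprinted gene, was at 48.6, 48.5 and 52.3 CPM in the untreated and 14.4, 15.5 and 11.7 CPM in the TWEAK-treated libraries (log2 fold change -1.84 ± 0.20, adjusted p = 0.000348). The treated libraries lay below all untreated ones for these 3 genes, and for *RANBP3L* untreated 3 was far below the other untreated libraries. *FABP3*, a fatty acid binding protein, fell from 31.4, 30.3 and 24.8 to 9.65, 8.74 and 7.94 CPM (log2 fold change -1.72 ± 0.22, adjusted p = 0.00109). *CDH3*, which encodes P-cadherin, fell from 1.91, 2.15 and 2.31 to 0.502, 0.498 and 0.611 CPM (log2 fold change -1.98 ± 0.30, adjusted p = 0.00342). Transporters made up 3 of the 15 largest falls. *SLC7A8*, an amino acid transporter, had a log2 fold change of -1.94 ± 0.31 (adjusted p = 0.0051), the bicarbonate transporter *SLC4A10* one of -1.91 ± 0.34 (adjusted p = 0.00935) and the glucose transporter *SLC2A12* one of -1.91 ± 0.31 (adjusted p = 0.00541). The others were *CHI3L1* and, with log2 fold changes of -2.06, -2.02, -1.92, -1.89, -1.69 and -1.63, *PPL*, *OLFML3*, *ADAMTS14*, *CSDC2*, *LRRN4CL* and *EFEMP1*. *PPL*, *OLFML3* and *ADAMTS14* lost the call when any 1 library was left out (highest adjusted p = 0.171, 0.0945 and 0.166, in that order). *RANBP3L* lost the call when TWEAK 2, TWEAK 3, untreated 1 or untreated 2 was left out (highest adjusted p = 0.074). *SCG2* lost the call when TWEAK 3 was left out (highest adjusted p = 0.0501). *SLC4A10* lost the call when TWEAK 2 or TWEAK 3 was left out (highest adjusted p = 0.0578). *CSDC2* lost the call when TWEAK 1, TWEAK 3, untreated 1, untreated 2 or untreated 3 was left out (highest adjusted p = 0.127). *EFEMP1* lost the call when TWEAK 1, TWEAK 2, TWEAK 3, untreated 1 or untreated 2 was left out (highest adjusted p = 0.0835). Of neural markers, the microtubule gene *MAP2* fell from 37.8, 43.2 and 32.5 to 18.3, 16.3 and 17.4 CPM (log2 fold change -1.13 ± 0.17, adjusted p = 0.00285), and of astrocyte markers the gap junction gene *GJA1* fell (log2 fold change -0.40 ± 0.10, adjusted p = 0.049). *GJA1* lost the call when any 1 library was left out (highest adjusted p = 0.232).

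**Figure D4:**
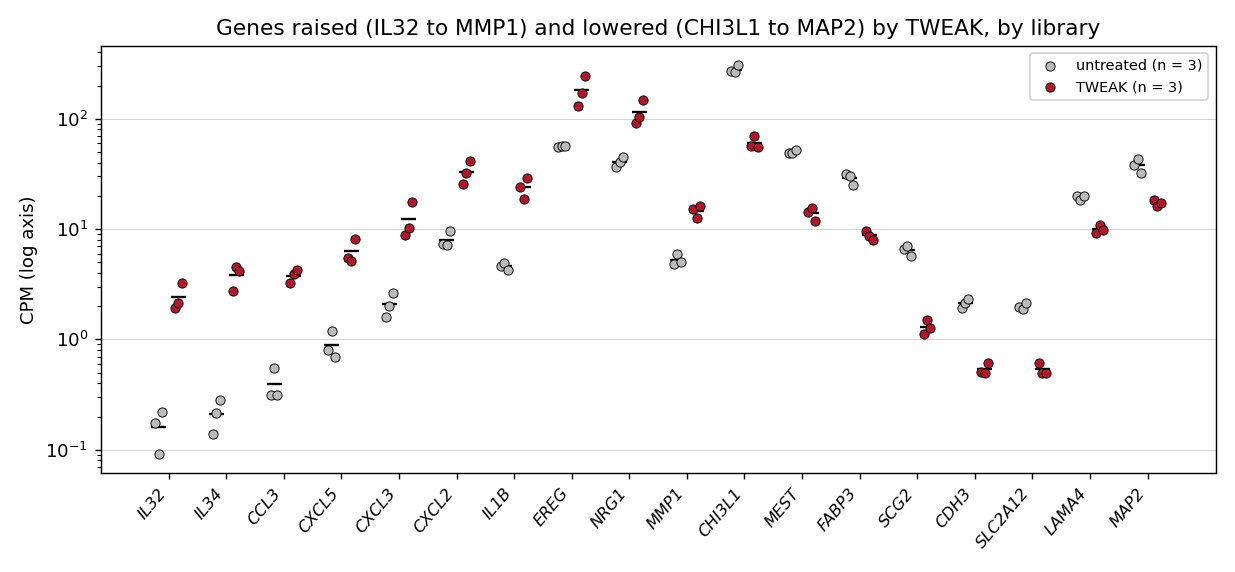
Levels in CPM on a log axis are shown for 10 raised and 8 lowered genes, with 1 point per library, grey for the 3 untreated and red for the 3 TWEAK-treated libraries, and a bar at the group mean. The genes shown were picked among the 520 called genes, in none of which the groups overlap, so their separation follows from the choice. TWEAK 3 is the highest point of *CXCL2*, *CXCL3*, *EREG* and *NRG1*.

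Binding of p52 was set beside the expression changes over all tested genes. After TWEAK, a p52 site lay within 10 kb of a start site of 73 raised genes (27.97%, exact 95% interval 22.6 to 33.8%), 19 lowered genes (7.34%, 4.47 to 11.2%) and 1516 of the other 16353 tested genes (9.27%, 8.83 to 9.73%). In untreated cells this was so for 0 raised and 0 lowered genes, which allows a share of up to 1.40% and 1.41% by the upper bound of the exact interval, and for 6 others. Seen from the sites, 4.54% of the 1608 genes with a p52 site rose and 1.18% fell, against 1.23% and 1.57% of the 15265 genes without one. Most genes with a p52 site thus had no called change. The genes with a site also had a higher median level, 27.4 against 14.5 CPM, and the part of level in the shares was not tested. Within 1 kb the shares were 17.2%, 4.63% and 4.75% in the same order. With the longer list of TWEAK replicate 2 alone they were 55.6%, 34.0% and 29.6%.

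RNA Pol II sites found only after TWEAK lay near 19.9% of raised, 1.93% of lowered and 6.13% of other genes, and RNA Pol II sites found only without TWEAK near 4.22%, 5.79% and 3.26%. Sites of both sets overlapped no peak in either replicate of the other condition. Within their own condition they rested on the rule of a peak in both replicates. By this rule, all RNA Pol II sites of untreated cells lay near 58.2% of raised, 36.7% of lowered and 54.65% of other genes. Those of TWEAK-treated cells lay near 72.0%, 41.3% and 65.6%. Lowered genes thus had the lowest share already without TWEAK, and the part of this in the shares of gained sites was not tested. Most gained and lost sites had weak peaks. With -log10 q of at least 5 there were 115 gained sites against 1350, and 34 lost sites against 903. These gained sites lay near 3.45%, 0.386% and 0.465% of raised, lowered and other genes. Gained sites lay near 44.1%, 13.9% and 22.95% of raised, lowered and other genes without TWEAK replicate 1 and near 55.9%, 23.6% and 38.3% without TWEAK replicate 2, with the same order of the 3 classes. Lost sites lay near 26.1%, 39.0% and 38.5% without untreated replicate 1 and near 15.3%, 19.3% and 17.2% without untreated replicate 2, where raised genes had the lowest share and no longer lay above the other genes. ETS1 sites of TWEAK-treated cells lay near 13.03%, 17.8% and 10.2%, so that here lowered genes had the highest share. The intervals of these ETS1 shares overlapped between raised and lowered genes. Peak lists of 2 replicates per condition carry no depth, genes are not replicates, and the shares are a description. In promoters of 300 bases (250 before and 50 after the MANE start), the κB consensus was present on either strand in 43 of 222 raised protein-coding genes (19.4%), 18 of 235 lowered genes (7.66%), 6.53% of the other tested and 6.57% of all protein-coding genes. In the central 200 bases it was present in 66.4% of the p52 sites and 4.08% of the RNA Pol II sites after TWEAK. A match is a description of sequence and not of binding.

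**Figure D5:**
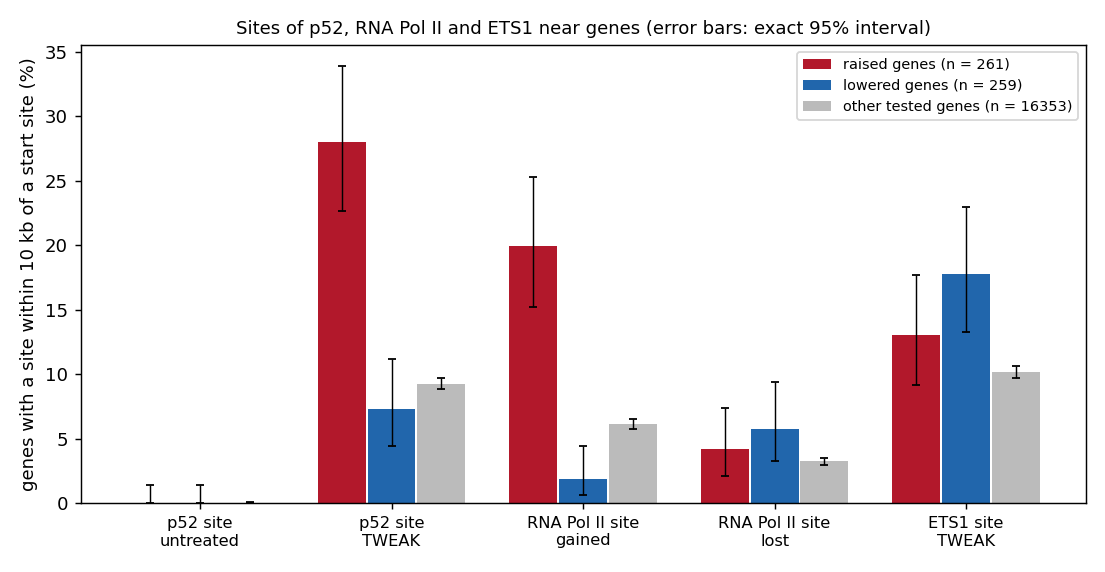
The bars give the percentage of raised (n = 261), lowered (n = 259) and other tested genes (n = 16353) with a site in both ChIP replicates within 10 kb of a start site, and the error bars the exact 95% interval, which covers counting error only. The p52 and gained RNA Pol II bars of raised genes stand above the other classes, and the ETS1 bars of raised and lowered genes have overlapping intervals.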

How the data were processed

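RNA of U-87 MG control cells, untreated or given TWEAK, was sequenced after poly(A) selection. According to the methods and the submitters' processing notes, reads were trimmed with Trimmomatic, aligned to hg38 with STAR and counted per gene with featureCounts. Versions and the strand setting of the counting were not given in the sources used here. The deposited values are raw counts. Of the 62696 rows, 62625 identifiers were matched to GENCODE 44. The ChIP peak lists deposited by the authors (Bowtie2, MACS2) give per replicate a fold enrichment ratio and the −log10 of the p-value and q-value.

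Counts of all 12 RNA-seq libraries, including the knockdown ones, were fitted in 1 model of 4 groups that share an estimate of the spread (edgeR 4.0.16, TMM scaling, filterByExpr, quasi-likelihood F-test, 8 residual degrees of freedom), and the contrast was TWEAK minus untreated, with Benjamini-Hochberg adjustment and a threshold of 0.05. Fold changes are from this fit, ± gives the standard error, and n = 3 libraries per group throughout. CPM are TMM-scaled. On simulated data for this comparison (16879 genes, 200 of them changed), 9.5%, 54% and 88.9% of genes changed 1.5-, 2- and 4-fold were recovered, with 5.8% false calls. The simulated counts held no library-wide effects such as the trends with GC content, so these rates may differ in the real libraries. DESeq2 1.42.0 (18.9% false calls) and limma-voom (limma 3.58.1) were alternatives. Total counts per library, between 28384201 and 40192606, limit the precision of low genes, and exact intervals cover counting error only. The members, the gene lists and the alternatives were chosen with earlier results of these data known. Named are the 15 protein-coding genes with the largest rise and the 15 with the largest fall (adjusted p under 0.05, mean of at least 1 CPM, groups not overlapping), up to 4 called members of each list by size of change, where fewer than 2 passed up to 2 members of highest level, and fixed genes of the pathway. Other names are stated as chosen after their values were seen, apart from marker genes. A ChIP site has a peak in both replicates (1 bp shared) and counts as near a gene within 10 kb of a GENCODE 44 start site. ChIP lists of knockdown cells were not used here. Left-out libraries, scalings, filters, a GC and length correction and a replicate block were the alternatives tried. Some results of members selected by this rule are not reported here.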

Additional observations from a re-analysis of the deposited data

How the results depend on the processing

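Against 261 raised and 259 lowered genes, DESeq2 called 431 and 509, the GC and length correction 444 and 496, the study's thresholds 557 and 640, and a test against a 1.5-fold change, added after the data were seen, 66 and 20. With no filter on low counts, 35060 genes were tested and 350 rose and 509 fell. Leaving out 1 library gave between 110 and 236 raised and between 61 and 169 lowered genes. RLE factors, upper-quartile scaling, library totals, a filter of 1 CPM in 3 libraries, limma-voom, the 6 control libraries alone and an added minimum of 1.5-fold each left both counts within 1.5 times. Deviations of same-numbered libraries correlated at 0.396, -0.178 and 0.492. Untreated 1 and untreated 3 correlated best with the TWEAK library of their own number, whereas untreated 2 correlated best with TWEAK 1 (0.369). Whether same-numbered libraries were pairs thus stayed unresolved, and the main test did not treat them as pairs. The replicate block gave 341 raised and 316 lowered genes, 666 and 774 with the GC and length correction, and 553 and 736, added after the data were seen, in the 6 control libraries alone. Not every library correlated best with its own number. The cause of these differences was not tested, apart from the smaller number of samples or larger number of genes where these apply.

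Of 133 tested genes named in the text, 118 were called, 0 of them changed sign under any alternative, and 64 stayed past the threshold whichever library was left out. Of the 15 named genes without a call, *CCL5*, *CD44*, *CSF1R*, *ERN1*, *IL6ST*, *NFKB1*, *RELA* and *TNFAIP3* gained one under some alternative. Under the replicate block these were *CD44* (adjusted p = 0.0164), *ERN1* (adjusted p = 0.0209) and *NFKB1* (adjusted p = 0.0243), and *RELA* and *TNFAIP3* passed where the block was joined by the GC and length correction (adjusted p = 0.0237 and 0.0362). Of the 41 members selected for level alone and not named, 17 changed sign under some alternative. Genes changed less than 2-fold were recovered poorly in simulated data, so that a missing call at such sizes says little. The shares of genes near a p52 site rested on the shorter list of TWEAK replicate 1. With -log10 q of at least 5 they were 27.2%, 6.95% and 8.14% for raised, lowered and other genes, within 50 kb 42.5%, 21.6% and 22.6%, and with a peak in either replicate 55.9%, 34.4% and 29.8%.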

Other observations

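The genes below were chosen after their values were seen, as called genes of high level or as lncRNAs. *TFPI2*, a serine protease inhibitor of the matrix, was at 785, 708 and 766 CPM in the untreated and 2443, 2344 and 2399 CPM in the TWEAK-treated libraries (log2 fold change 1.67 ± 0.16, adjusted p = 0.000193). *CTSS*, the lysosomal protease cathepsin S, was at 46.1, 45.6 and 42.7 CPM in the untreated and 167, 166 and 204 CPM in the TWEAK-treated libraries (log2 fold change 2.00 ± 0.15, adjusted p = 2.92e-05). *ALDH1A3*, an enzyme of retinoic acid synthesis, was at 159, 164 and 171 CPM in the untreated and 461, 448 and 574 CPM in the TWEAK-treated libraries (log2 fold change 1.59 ± 0.14, adjusted p = 0.000126). In all 3 genes the treated libraries lay far above the untreated ones. *BMAL2*, a paralog of the clock factor BMAL1, rose 2.22-fold (adjusted p = 0.000733), *TGM2*, a protein cross-linking enzyme, 1.91-fold (adjusted p = 0.00171) and *NAMPT*, an enzyme of NAD synthesis, 2.03-fold (adjusted p = 0.0173). Among abundant genes that fell, *GPNMB*, a transmembrane glycoprotein, was at 187, 187 and 166 CPM in the untreated and 78, 73.3 and 63.5 CPM in the TWEAK-treated libraries (log2 fold change -1.33 ± 0.14, adjusted p = 0.000309). *CYP1B1*, a cytochrome P450, was at 145, 151 and 139 CPM in the untreated and 65.6, 70.9 and 83.3 CPM in the TWEAK-treated libraries (log2 fold change -0.98 ± 0.12, adjusted p = 0.000636). *WLS*, which carries Wnt ligands to the cell surface, fell 1.59-fold (adjusted p = 0.0112). *NAMPT* lost the call when TWEAK 3 or untreated 1 was left out (highest adjusted p = 0.0698). *WLS* lost the call when TWEAK 2, TWEAK 3, untreated 1 or untreated 2 was left out (highest adjusted p = 0.0763).

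Of 2924 tested lncRNAs, 37 rose and 21 fell, against 261 and 259 of all 16879 tested genes, so that lncRNAs were not called more often than genes at large. *LYPLAL1-AS1* was at 4.73, 5.56 and 4.84 CPM in the untreated and 18.7, 15.1 and 15.7 CPM in the TWEAK-treated libraries (log2 fold change 1.71 ± 0.17, adjusted p = 0.000193), *LINC00622* was at 0.382, 0.184 and 0.375 CPM in the untreated and 1.83, 2.41 and 3.53 CPM in the TWEAK-treated libraries (log2 fold change 3.05 ± 0.37, adjusted p = 0.000689), and *PPP1R9A-AS1* was at 2.78, 2 and 1.75 CPM in the untreated and 0.466, 0.523 and 0.416 CPM in the TWEAK-treated libraries (log2 fold change -2.20 ± 0.28, adjusted p = 0.000869). The groups did not overlap in any of them, as in every called gene. The snoRNA host genes *GAS5*, *SNHG1* and *ZFAS1* rose 1.4-, 1.48- and 1.42-fold (adjusted p = 0.0407, 0.0306 and 0.0491). *VIM-AS1*, antisense to *VIM*, rose 1.67-fold (adjusted p = 0.00248). The strand setting of the counting was not given, so reads of *VIM* and *VIM-AS1*, and those of the other antisense genes and their partners, cannot be told apart. *GAS5* and *ZFAS1* lost the call when any 1 library was left out (highest adjusted p = 0.178 and 0.186, in that order). *SNHG1* lost the call when TWEAK 1, TWEAK 2, TWEAK 3, untreated 1 or untreated 2 was left out (highest adjusted p = 0.152).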
